A study of Rattus norvegicus with 19 samples.

Results

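Bdnf, the gene for brain-derived neurotrophic factor, was followed in the T11 dorsal root ganglion of the rat while its skin nerves were free to sprout into denervated skin. It was chosen by its measured levels on these same arrays, so its group differences are given as a description and without a test. It is 1 of 14217 genes with a symbol of their own on the array, and it is read by 2 of 31042 probe sets, 1368677_at and 1368678_at. Brain-derived neurotrophic factor is a secreted neurotrophin. It is made as a precursor, proBDNF, that is cut by furin and other proprotein convertases inside the cell or by plasmin and metalloproteinases outside it. The mature form acts through the receptor tyrosine kinase TrkB, the product of Ntrk2, while proBDNF binds p75, the product of Ngfr, together with sortilin. In sensory ganglia it is made mainly by peptidergic nociceptors, which also hold the peptides encoded by Calca and Tac1, and it is carried to their central and peripheral endings.

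All animals were adult female Sprague-Dawley rats, and each array held the RNA of 1 T11 ganglion of 1 rat after 2 rounds of linear amplification. The naive group of 5 rats had no operation. In the day 7 group of 7 rats and the day 14 group of 7 rats, a unilateral operation had severed the dorsal and lateral cutaneous nerves of segments T9, T10, T12 and T13 and left those of T11 whole. The study presumed that day 7 represents an initiation phase and day 14 a maintenance phase of sprouting. There was no sham operation, so surgery as such and loss of the neighbouring skin nerves cannot be told apart, and RNA of a whole ganglion cannot tell more Bdnf per cell from more cells that make it. The values are log2 expression levels, on which a difference of 1 is a fold of 2, and the arrays carry no read depth, so their number limits the precision.

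Bdnf lies on chromosome 3 of the RefSeq rat assembly GRCr8, on the plus strand from 116619633 to 116670212, a span of 50580 bases with 11 annotated transcripts. These start at several separate first exons, each with a promoter of its own, and RefSeq gives 6 windows from 250 bases before to 50 bases after a start. The last 2 windows are offset by 56 bases and overlap. A pair of windows is shown because each holds the single match to a motif searched for. The second window along the gene, chr3:116620585-116620884, holds CACGTG, the E-box bound by upstream stimulatory factors, in capitals.

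Bdnf window 2: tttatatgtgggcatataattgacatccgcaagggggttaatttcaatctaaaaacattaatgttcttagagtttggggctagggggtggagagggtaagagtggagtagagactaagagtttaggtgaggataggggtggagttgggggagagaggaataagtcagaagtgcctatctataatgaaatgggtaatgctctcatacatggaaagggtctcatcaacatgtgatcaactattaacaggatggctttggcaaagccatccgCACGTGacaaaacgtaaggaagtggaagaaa

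The fourth window, chr3:116637608-116637907, holds CGTCA in capitals, the reverse complement of TGACG, which is one arm of the cyclic AMP response element, with its first base 35 bases before the start.

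Bdnf window 4: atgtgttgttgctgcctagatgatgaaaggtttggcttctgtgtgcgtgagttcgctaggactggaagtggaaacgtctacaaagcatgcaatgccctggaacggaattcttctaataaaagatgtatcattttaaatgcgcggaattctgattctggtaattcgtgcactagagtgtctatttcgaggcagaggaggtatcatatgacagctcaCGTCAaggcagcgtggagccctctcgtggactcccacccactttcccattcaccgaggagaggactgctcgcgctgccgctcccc

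The complete element, TGACGTCA, was met in 0 of 6 Bdnf windows and in 1.829% of 33469 RefSeq windows of this length in the rat. The arm TGACG, searched on both strands and counted also where it is part of the complete element, was met in 1 of 6 windows and in 21.2% of all. CACGTG, which is its own reverse complement, was met in 1 of 6 and in 6.418% of all. These are matches of letters. The platform annotation ties 1368677_at to the reference transcript NM_012513 and 1368678_at to the record X67108, and where their probes lie along the gene was not used here.

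By 1368677_at, Bdnf was higher in operated than in naive rats at both times and about level between the times. The 5 naive arrays read 8.32, 7.78, 8.04, 7.53 and 8.03. At day 7 the 7 arrays ran from 8.30 through a median of 8.74 to 9.08, and at day 14 from 8.30 through 8.77 to 9.11. Replicate 4 of day 7 and replicate 3 of day 14 were the lowest operated arrays and lay just under the highest naive array, and the remaining operated arrays lay above it, 6 of 7 at each time. Over all probe sets of the array, 0.0% passed limma's adjusted p of 0.05 at day 7 and 0.139% at day 14. Those contrasts chose the gene, and nothing is read from these shares here.

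The naive mean of 1368677_at was 7.94 ± 0.30 (SD, n = 5). Its day 7 mean was 8.73 ± 0.31 (SD, n = 7), and its day 14 mean 8.77 ± 0.29 (SD, n = 7). The log2 difference from naive was 0.79 ± 0.16 (SE) at day 7, a fold of 1.73, and 0.83 ± 0.16 (SE) at day 14, a fold of 1.78. In the order of levels naive came lowest, and the neighbours day 7 and day 14 differed by 0.04 ± 0.15 (SE), within the spread between rats. The SD was about the same in all 3 groups.

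The dimmer probe set, 1368678_at, had the same order of group means with smaller steps. Its naive arrays read 6.20, 5.74, 6.003, 5.97 and 5.91, with a mean of 5.96 ± 0.16 (SD, n = 5). The day 7 arrays lay between 6.18 and 6.32 around a mean of 6.22 ± 0.06 (SD, n = 7), and the day 14 arrays between 6.14 and 6.51 around 6.29 ± 0.16 (SD, n = 7). Only 3 of 7 arrays at day 7 and 4 of 7 at day 14 stood above the highest naive array, which was replicate 1 here too. The log2 difference from naive was 0.26 ± 0.08 (SE) at day 7 and 0.33 ± 0.08 (SE) at day 14, folds of 1.197 and 1.26. Day 14 and day 7 differed by 0.07 ± 0.07 (SE).

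**Figure D1:**
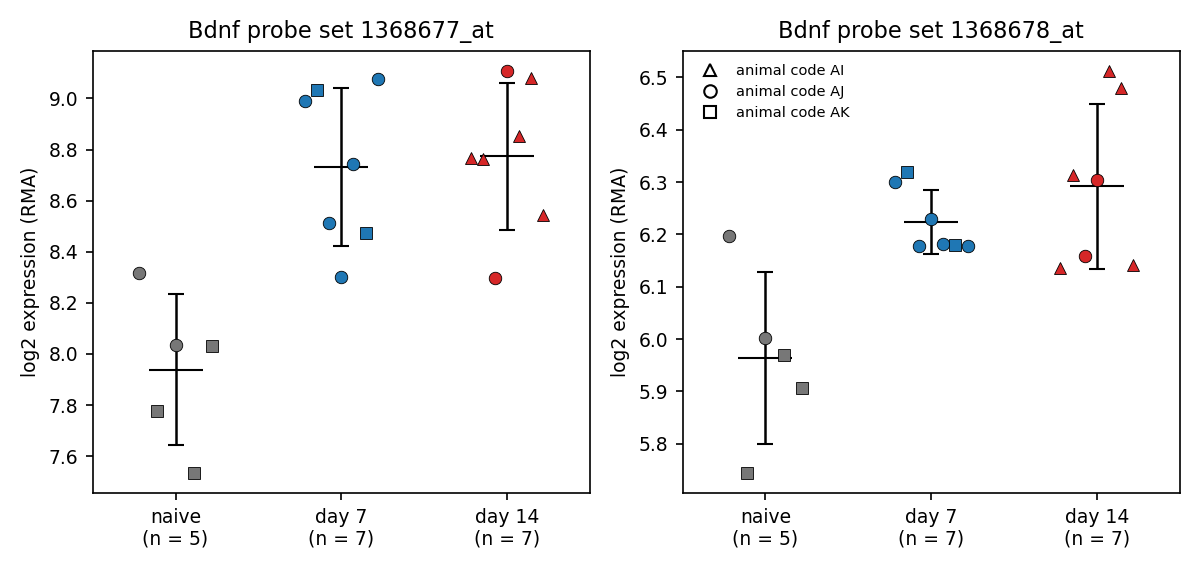
Log2 expression of both Bdnf probe sets on each of the 19 arrays, by group, with the group mean and SD as bars and the letters that begin the animal code as symbols; each panel has its own vertical scale, and neither starts at 0. By 1368677_at 6 of 7 arrays of each operated group lie above the highest naive array, and by 1368678_at 3 of 7 and 4 of 7 do.

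The codes of the rats begin with AI, AJ or AK, letters that the labels do not explain and that are spread unevenly over the groups. Naive rats carried AJ (2) and AK (3), day 7 rats AJ (5) and AK (2), and day 14 rats AI (5) and AJ (2). Among AJ rats alone, 1368677_at stood 0.55 above naive at day 7 and 0.53 at day 14, and among AK rats 0.97 above naive at day 7. For 1368678_at the AJ rats gave 0.11 and 0.13 and the AK rats 0.38. With the letters as a block in the fit, 1368677_at stood at 0.74 ± 0.17 (SE) and 0.66 ± 0.25 (SE), and 1368678_at at 0.23 ± 0.08 (SE) and 0.22 ± 0.12 (SE). The difference from naive was positive in each of these. Day 14 minus day 7 turned to -0.08 ± 0.23 (SE) by 1368677_at and -0.02 ± 0.11 (SE) by 1368678_at under the block, within its error. The part of the letters in the size of the difference was not tested.

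Skeletal muscle transcripts also varied between arrays, and naive replicate 1, day 7 replicate 7 and day 14 replicate 2 stood apart, with a mean over 12 of 13 listed muscle markers of 9.77, 9.49 and 8.03. The other arrays lay at or below 7.08. Without these 3 arrays the difference of 1368677_at was 0.83 ± 0.17 (SE) at day 7 and 0.93 ± 0.17 (SE) at day 14, as large as with them. The ratio of 3' to 5' signal of control transcripts ran from 3.26 to 3.69 log2 units in naive, 3.16 to 3.38 in day 7 and 3.18 to 3.36 in day 14 arrays. With it as a covariate the differences were 0.67 ± 0.18 (SE) and 0.70 ± 0.18 (SE).

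The identity of the tissue was checked by its markers. The mean of 6 general sensory neuron markers, among them Avil, Isl1 and Prph, lay between 11.28 and 11.69 on every array, while that of 6 markers of the central nervous system, among them Mog and Neurod6, lay between 5.70 and 6.07.

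Whether the probe sets follow the same rats was asked within groups, after subtracting each group's mean, since the group means had chosen the gene. Across the 19 arrays the deviations of 1368677_at and 1368678_at correlated with Pearson r = 0.554 (permutation p = 0.0171) and Spearman rho = 0.547 (permutation p = 0.0231). Without the 2 arrays farthest from the median of 1368677_at, day 7 replicate 4 and day 14 replicate 3, r was 0.561. Among the 7 day 7 arrays r was 0.451 (exact permutation p = 0.321) with rho = 0.143 (p = 0.783), and among the 7 day 14 arrays r was 0.654 (exact permutation p = 0.120) with rho = 0.464 (p = 0.302). The agreement leaned on naive replicate 1, without which r was 0.466 (permutation p = 0.0629). Rats high in one probe set tended to be high in the other, with wide scatter at day 7, where 1368678_at hardly varied.

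The same deviations were then set against every other transcript, to ask which genes vary from rat to rat as Bdnf does within a group. For 1368677_at, 0 of 31040 (0.0%) passed in limma at the threshold of 0.05 on the adjusted p, of which the smallest was 0.723. At an unadjusted p under 0.05 there were 2133, or 6.87%, of which 1109 had a positive and 1024 a negative slope. With 1368678_at as the reference 0 passed and 1464, or 4.72%, had an unadjusted p under 0.05. The correlations named below are therefore an order of likeness within these 19 arrays.

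Among probe sets with 1 gene symbol, the most alike was one of Calca, the gene of calcitonin gene-related peptide, a vasodilator peptide of nociceptors. This probe set, 1369116_a_at, read 10.06, 9.85, 9.94, 9.52 and 9.82 in naive rats. It ran from 10.10 to 10.50 at day 7, all 7 arrays above the highest naive array, and from 9.93 to 10.52 at day 14, with 4 of 7 above it. Its within-group r with Bdnf was 0.804 (limma adjusted p = 0.723) and rho = 0.746. No permutation p is given for it, since it was picked as the most alike. Without the 2 farthest arrays r was 0.755. It was 0.919 among day 7 arrays and 0.700 among day 14 arrays.

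Other probe sets of Calca were less alike. The brightest, 1370775_a_at, had r = 0.567 (permutation p = 0.0177, or 0.229 adjusted over 26 genes compared). Its rho was 0.528 (permutation p = 0.0277, or 0.321 adjusted), and without the 2 farthest arrays its r was 0.459. The dimmest, 1369117_at, had r = -0.060. Against 1368678_at in place of 1368677_at, 1369116_a_at had r = 0.585. The group means of 1370775_a_at were 12.52 in naive, 12.54 in day 7 and 12.59 in day 14 rats. Its arrays above the highest naive array were 3 of 7 on day 7 and 5 of 7 on day 14. For 1369117_at they were 3 of 7 and 4 of 7. The separation of all day 7 arrays from naive by 1369116_a_at was thus not shared by these probe sets.

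Tac1, the gene of the tachykinin substance P, was also among the 10 most alike. Its naive arrays read 10.73, 10.32, 10.72, 9.62 and 10.33, the day 7 arrays ran from 10.31 to 10.95 and the day 14 arrays from 10.13 to 10.93. The groups overlapped. Its within-group r with Bdnf was 0.745 (permutation p = 0.00042, limma adjusted p = 0.723), rho was 0.777 (permutation p = 0.00038), and without the 2 farthest arrays r was 0.749. It was 0.653 at day 7 and 0.772 at day 14. Against 1368678_at it was 0.401.

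The other 8 of the most alike were Chmp1b (0.785), which encodes an endosomal sorting subunit, Hddc3 (0.761), Pfdn4 (0.745), a prefoldin subunit, Prpf38b (0.744), Selenot (0.738), a selenoprotein, Anks1b (0.737), Pkib (0.733), an inhibitor of protein kinase A, and Scnm1 (0.727). Of Chmp1b the 3 other probe sets had r between -0.027 and 0.406, and of Prpf38b the other probe sets had -0.180 and 0.114. Selenot had another at 0.337, Pkib one at 0.480, and Anks1b others at 0.269 and 0.664. The Prpf38b probe set at 0.744 was dim, with a naive mean of 4.68, where the lowest value on any array was 3.48.

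The most opposite 10 among probe sets with 1 gene symbol were Tm9sf1 (-0.781), Dhx58 (-0.772), an RNA helicase of antiviral sensing, Bmp2 (-0.762), a bone morphogenetic protein, Cenpt (-0.752), a centromere protein, LOC102555774 (-0.748), Strn4 (-0.747), Crocc (-0.745), a protein of the ciliary rootlet, Nrep (-0.738), Coro6 (-0.731) and Pced1a (-0.727). Some of these were dim, with naive means of 4.81 for Cenpt, 4.89 for LOC102555774 and 5.16 for Dhx58. Another probe set of Bmp2 had r = -0.240. Those of Cenpt and Strn4 were positive, at 0.429 and 0.313, and those of Dhx58 lay on both sides of 0, at -0.266 and 0.197. Among genes with several probe sets the likeness thus often belonged to 1 of them.

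The mean of the measured peptidergic nociceptor markers, Calca, Calcb, Tac1, Kit and the capsaicin receptor Trpv1, followed the brighter Bdnf probe set within groups. The mean was not set against the dimmer one. Its r was 0.733 (permutation p = 0.00122, adjusted p = 0.0171 over 14 array measures) and rho = 0.695 (permutation p = 0.00272). Without the 2 farthest arrays r was 0.694, and it was 0.476 (exact permutation p = 0.271) at day 7 and 0.897 (exact permutation p = 0.00754) at day 14. All 5 markers had a positive r, from 0.10 for Trpv1 through 0.37 for Kit, 0.57 for Calca and 0.58 for Calcb to 0.75 for Tac1, and their median was 0.567 against 0.006 over all 14216 other genes. Against the dimmer probe set, 1368678_at, r was 0.401 for Tac1, 0.338 for Calca 1370775_a_at and 0.034 for Trpv1, and Calcb and Kit are not given here. The mean ran from 10.21 to 10.51 in naive, 10.33 to 10.60 in day 7 and 10.35 to 10.65 in day 14 arrays, so the groups overlapped.

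**Figure D2:**
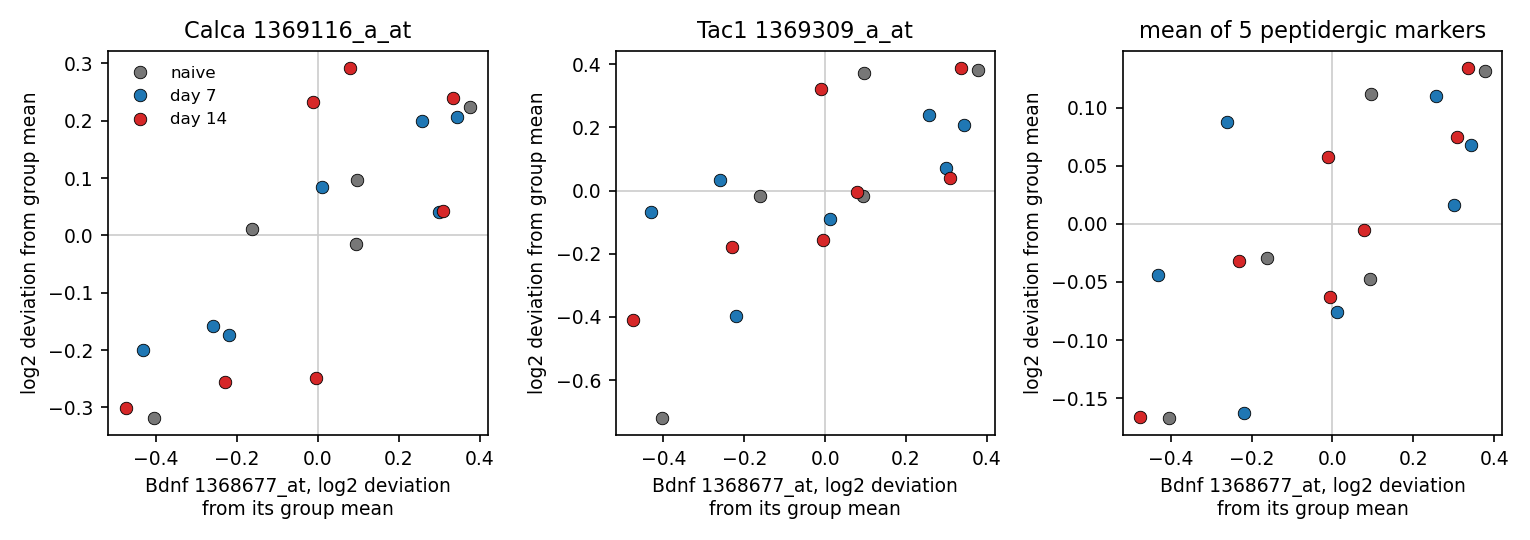
Deviation of each array from its group mean in log2 units, for Calca 1369116_a_at, Tac1 and the mean of 5 peptidergic markers (vertical, each with its own scale) against that of Bdnf 1368677_at (horizontal), with 1 point per array coloured by group. The points rise together, with a within-group r of 0.804, 0.745 and 0.733.

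The mean of the general sensory neuron markers had r = 0.556 (permutation p = 0.0161, adjusted p = 0.113) and rho = 0.556 (permutation p = 0.0177), or r = 0.472 without the 2 farthest arrays. Day 14 replicate 3, the lowest day 14 array for Bdnf, was also the lowest day 14 array for these markers at 11.28, and day 7 replicate 7, the highest day 7 array for Bdnf, was the highest for them at 11.69. The part of overall neuronal signal in the correlation of Bdnf with the peptidergic markers was not tested. The other markers gave r = 0.415 for nonpeptidergic nociceptors, 0.162 for large myelinated neurons, 0.164 for repair Schwann cells, -0.349 for myelinating Schwann cells, 0.091 for satellite glia, -0.438 for fibroblasts, -0.305 for endothelial cells, -0.396 for the central nervous system, 0.359 for skeletal muscle, -0.027 for macrophages and -0.025 for T lymphocytes. The ratio of 3' to 5' signal had r = -0.320. None of these 12 had an adjusted p under 0.05.

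Ligands and receptors of the neurotrophin family were described next. The measured ligands apart from Bdnf were Ntf3 and Ntf4, which encode neurotrophin 3 and neurotrophin 4. Both were dim, with naive means of 5.24 and 4.81, where the lowest value on any array was 3.48. They differed from naive by -0.05 and 0.00 on day 7 and by 0.00 and 0.06 on day 14. The threshold was passed by 0 of 2 in any contrast. Of 9 measured receptors 0 passed in any contrast, against 0.0% of all probe sets at day 7, 0.139% at day 14 and 0.0% between the times. At an unadjusted p under 0.05 there was 1 of 9 in each, beside 8.70%, 19.7% and 11.3% of all probe sets.

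Ntrk2, the TrkB receptor gene, stood at -0.04 ± 0.10 (SE) at day 7 and 0.00 ± 0.10 (SE) at day 14, on a naive level of 11.20 ± 0.19 (SD, n = 5), and its other probe sets lay between -0.20 and 0.18 at day 14. Ngfr, the p75 receptor gene, stood at 0.02 ± 0.07 (SE) and 0.05 ± 0.07 (SE). Ntrk3, the receptor gene of neurotrophin 3, stood at -0.11 ± 0.12 (SE) and 0.03 ± 0.12 (SE). Sort1, the gene of sortilin, was the lowest of the 9 at day 7 with -0.22 ± 0.09 (SE), and stood at -0.08 ± 0.09 (SE) at day 14.

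The relatives of sortilin stood at -0.15 and -0.17 for Sorcs1, 0.13 and 0.17 for Sorcs2 and 0.12 and -0.09 for Sorcs3, day 7 before day 14. Lingo1, whose product joins p75 in a receptor complex, was the lowest of the 9 at day 14 with -0.29 ± 0.13 (SE), while its other probe sets stood above naive then, at 0.11 and 0.34. Nradd, a relative of p75, stood at -0.08, and its other probe sets at 0.12 and 0.13.

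**Figure D3:**
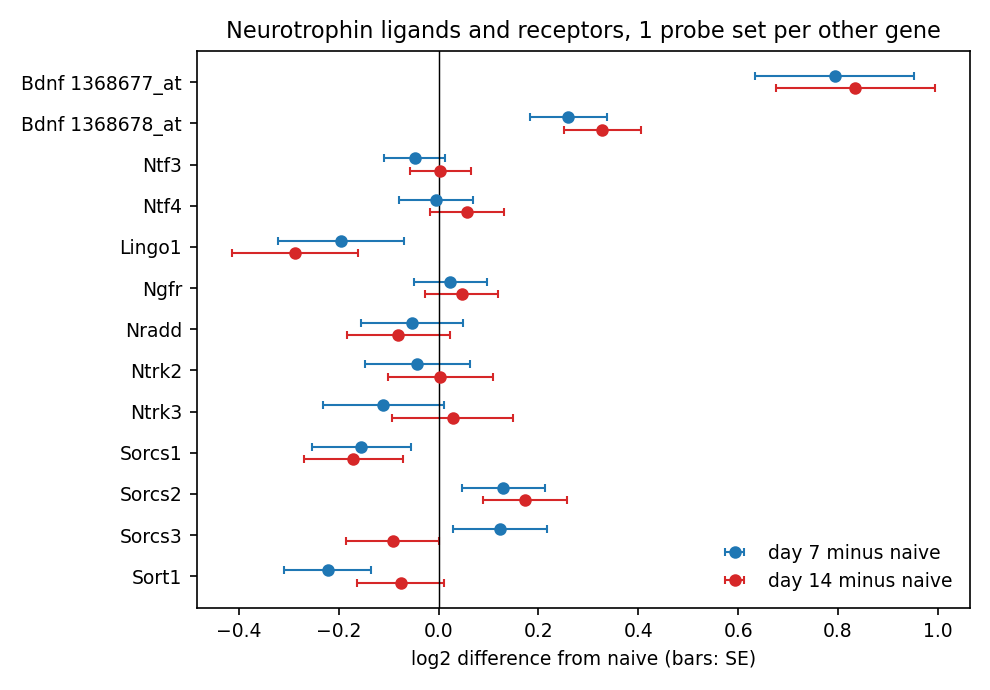
Log2 difference from naive at day 7 and day 14, with standard errors as bars, for both Bdnf probe sets and for 1 probe set, that of the highest mean, of each other measured ligand and receptor. Bdnf 1368677_at stands at 0.79 and 0.83, and the 11 others lie between -0.29 and 0.17. Ntf3 and Ntf4 are dim, with naive means of 5.24 and 4.81.

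Of 19 measured genes for processing, sorting and release of proBDNF, 1 passed at day 14 and 0 at day 7, and their median differences were -0.03 and -0.03. Over all 14216 other genes 1 rose and 18 fell past the threshold at day 14, and the median was 0.00. The 1 was Pcsk6, a proprotein convertase of the furin family. Its naive mean was 7.93 ± 0.04 (SD, n = 5), its day 7 mean 7.81 ± 0.07 (SD, n = 7) and its day 14 mean 7.65 ± 0.10 (SD, n = 7). All 7 day 14 arrays and 5 of 7 day 7 arrays lay below the lowest naive array. Pcsk6 fell by 0.29 ± 0.05 (SE) at day 14 (limma adjusted p = 0.0338), and at day 7 its difference was -0.12 ± 0.05 (SE). The call was lost with the replicate number as a block (adjusted p = 0.143), with the code letters as a block (adjusted p = 0.408), with the 3' to 5' ratio as a covariate (adjusted p = 0.217), without the 3 arrays high in muscle transcripts (adjusted p = 0.0546) and with moderation by a trend on level (adjusted p = 0.0712). It was also lost without any 1 of naive replicates 2, 3, 4 and 5 (adjusted p between 0.0594 and 0.0723) or of day 14 replicates 5, 6 and 7 (0.0525 to 0.0701), although the difference stayed between -0.25 and -0.30 without any 1 array.

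The other processing genes gave values on both sides of naive. Furin stood at -0.19 at day 7 and -0.05 at day 14. Plat, the gene of tissue plasminogen activator, which turns plasminogen into the plasmin that can cut proBDNF, stood at 0.50 ± 0.11 (SE) at day 14 and did not pass (limma adjusted p = 0.067). Tsn, the gene of translin, a protein of Bdnf mRNA transport, stood at 0.40 and 0.42, and Mmp9, a metalloproteinase, at -0.63 and -0.62 with a naive SD of 1.004. Cpe, the sorting receptor carboxypeptidase E, stood at -0.03 and 0.01. Within groups 13 of 19 had a positive r with Bdnf, with a median of 0.191, against 7216 of 14216 and 0.006 over all other genes. Those of the vesicle proteins Syt4 (0.605), Scg2 (0.543) and Chgb (0.518) were the highest.

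Of 18 measured regulators of Bdnf transcription 0 passed in any contrast, with medians of -0.04 at day 7 and 0.01 at day 14. Since 0.139% of all probe sets passed at day 14 and 0.0% in the other contrasts, a count of 0 in this or the following lists is near the background and is no result about the list. Creb1, whose product binds the cyclic AMP response element shown above in part, stood at 0.38 ± 0.28 (SE) and 0.06 ± 0.28 (SE). Its coactivator genes Crtc1, Crtc2 and Crtc3 gave -0.36, -0.20 and -0.21 on day 7, then -0.27, -0.27 and -0.11 on day 14. Usf1 and Usf2, the upstream stimulatory factors of the E-box, gave -0.02 and -0.13 on day 7, then 0.10 and 0.01 on day 14. Rest, a repressor of neuronal genes, stood at -0.04 and 0.17. The median r with Bdnf within groups was -0.039, with Arnt2 highest at 0.522.

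Downstream of the receptors, 0 of 26 Trk signalling genes and 0 of 13 genes induced by activity or neurotrophins passed in any contrast, beside 0.139% of all probe sets at day 14 and 0.0% otherwise. Their medians were -0.03 and -0.08 at day 7 and -0.00 and 0.05 at day 14. Among the induced genes Fos stood at -0.45 and -0.35, Nr4a1 at -0.47 and -0.31, Arc at 0.12 and 0.17 and Vgf, a secreted neuropeptide precursor, at 0.23 and 0.19. Of 8 measured genes of the related GDNF family and its receptors 0 passed against the same background, and Gfra1 stood at 0.20 and 0.23.

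Of 18 axon injury genes 0 passed in any contrast, beside the 0.139% of all probe sets at day 14 and 0.0% otherwise. Above naive lay 17 at day 7 and 16 at day 14, with medians of 0.45 and 0.62. Over all 14216 other genes 6926 and 7212 lay above naive, with medians of -0.0034 and 0.0025. Npy, a neuropeptide of injured large neurons, stood at 2.49 ± 0.78 (SE) and 2.98 ± 0.78 (SE), and Vip, vasoactive intestinal peptide, at 2.03 and 2.89. Their spread between operated rats was wide, which allowed Bdnf to be set against them rat by rat. Within groups 15 of 18 had a positive r with Bdnf, with a median of 0.247, against 7216 of 14216 and 0.006 over all other genes. The 18 are not separate observations, since members such as Atf3, Gal and Vip rose and fell together between rats.

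Ccl2, a chemokine that draws monocytes and is also made by injured sensory neurons, followed Bdnf closely at day 7. The 7 arrays of day 7, replicates 1 to 7, read 9.77, 9.85, 8.98, 8.92, 9.38, 9.33 and 9.95 for Ccl2, where Bdnf 1368677_at read 8.99, 9.03, 8.51, 8.30, 8.74, 8.47 and 9.08. The 3 rats highest in one were the 3 highest in the other. There r was 0.955 (exact permutation p = 0.00238, or 0.0619 adjusted over 26 genes compared) and rho 0.964 (exact permutation p = 0.00278). At day 14 the arrays read 9.63, 10.0025, 10.25, 9.83, 10.01, 9.67 and 9.05 for Ccl2 and 8.77, 8.76, 8.30, 9.11, 8.85, 9.08 and 8.54 for Bdnf, and the rat highest in Ccl2 was the lowest in Bdnf. There r was -0.087 (exact permutation p = 0.844) and rho -0.143 (exact permutation p = 0.783). Over all groups r was 0.507 (permutation p = 0.0398, limma adjusted p = 0.723) with rho = 0.502 (permutation p = 0.0415), and 0.699 without the 2 farthest arrays.

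Several injury genes had the same form. Atf3, a transcription factor induced by axon damage, had r = 0.819 at day 7 (exact permutation p = 0.0363, or 0.215 adjusted over 26 genes) and -0.167 at day 14 (exact permutation p = 0.711). Gal, the gene of galanin, had 0.776 and -0.122, Vip 0.833 and -0.039, Il6 0.784 and -0.179 and Npy 0.650 and -0.046. Il6 was dim, from 4.23 to 4.82 at day 7 and 4.16 to 4.58 at day 14. The lowest value on any array was 3.48. Day 14 replicate 3, with the lowest Bdnf of its group, had the highest Atf3 (11.63), Gal (11.64), Npy (12.38) and Ccl2 (10.25) of its group. Replicate 7, with the next lowest Bdnf (8.54), had the lowest Atf3 (8.12), Gal (9.295), Npy (7.39) and Ccl2 (9.05). Each day 14 r of these genes includes replicate 3, and whether the difference between the times holds without it was not tested gene by gene.

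The difference between the times was tested as a difference of slopes on Bdnf over all probe sets, and 0 of 31040 (0.0%) passed, with 1705, or 5.49%, at an unadjusted p under 0.05. For Ccl2 the slope of day 14 minus that of day 7 was -1.40 ± 0.50 (SE, limma adjusted p = 0.882), and for Atf3 it was -4.45 ± 1.72 (SE, limma adjusted p = 0.882). The contrast between times in these correlations did not pass. Without day 14 replicate 3, 1103 probe sets, or 3.55%, had an unadjusted p under 0.05 for the difference of slopes.

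**Figure D4:**
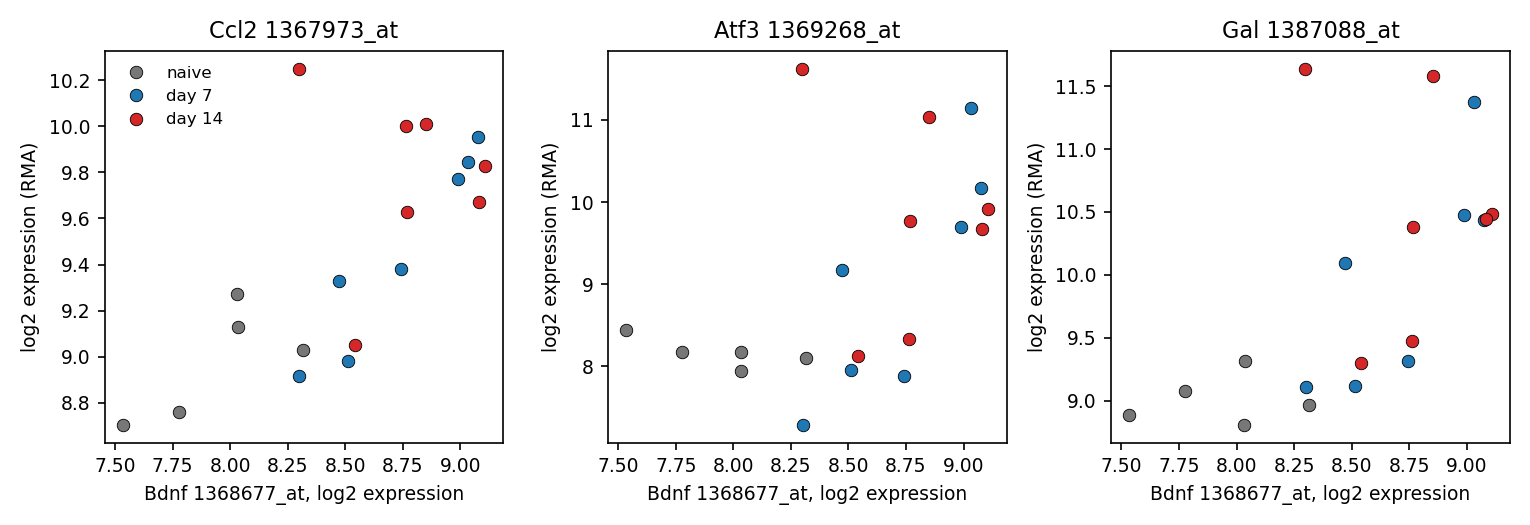
Log2 expression of Ccl2, Atf3 and Gal (vertical, each with its own scale) against that of Bdnf 1368677_at (horizontal), with 1 point per array coloured by group. The day 7 points rise together, with r of 0.955, 0.819 and 0.776. The day 14 points had r of -0.087, -0.167 and -0.122. These include replicate 3, the array of that group lowest in Bdnf and highest in Ccl2, Atf3 and Gal. The difference of slopes did not pass the threshold.

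The correlations of the 9 receptor genes with Bdnf had both signs at day 14. Ntrk3 had r = 0.109 with Bdnf at day 7 and 0.910 at day 14 (exact permutation p = 0.00377, or 0.080 adjusted over 26 genes), and Ntrk2 had 0.377 and 0.854 (exact permutation p = 0.0135, or 0.0877 adjusted). The other probe sets of Ntrk2 had a day 14 r between 0.547 and 0.898. Nradd had 0.063 and -0.847 (exact permutation p = 0.0179, or 0.0894 adjusted), and its other probe sets had -0.594 and -0.618 at day 14. The rest had day 14 values of 0.694 for Ngfr, 0.625 for Sorcs2, 0.465 for Sorcs3, 0.381 for Sort1, 0.186 for Lingo1 and -0.401 for Sorcs1. The slope on Bdnf differed between day 14 and day 7 by 0.64 ± 0.32 (SE) for Ntrk3 (limma adjusted p = 0.882) and by 0.22 ± 0.29 (SE) for Ntrk2 (limma adjusted p = 0.945), and neither difference passed. Il1b, the gene of interleukin 1 beta, had -0.532 at day 7 and -0.822 at day 14 (exact permutation p = 0.0206, or 0.0894 adjusted). Its rho at day 14 was -0.500 (exact permutation p = 0.267), and it was dim, from 5.33 to 5.95 at day 14. Each of these day 14 values includes replicate 3, which was lowest in Bdnf, Ntrk2 and Ntrk3 and highest in Nradd and Il1b. Over all groups Ntrk2 had r = 0.200 and Ntrk3 r = 0.147, and without the 2 farthest arrays -0.266 and -0.133. Among the 5 naive arrays r was negative for both, at -0.887 for Ntrk2 and -0.711 for Ntrk3, and it was -0.499 for Nradd. Of the inflammatory cytokines and mediators 0 of 10 passed in any contrast, against 0.139% of all probe sets at day 14 and 0.0% otherwise, and Ccl2 stood at 0.48 ± 0.19 (SE) at day 7 and 0.80 ± 0.19 (SE) at day 14 (limma adjusted p = 0.076).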

How the data were processed

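RNA of single T11 ganglia from 19 rats was measured, 1 array per rat, in groups taken from the labels. Each deposited value is the log2 expression of a probe set. RMA (background correction, quantile normalization, probe summary) and limma were the authors' tools, per the submitters' processing notes, with versions not given in the sources used here. Quantile normalization hides a shift shared by most transcripts, and amplification from the 3' end can change the balance between probe sets of a gene. Per the series text, 1 naive array was removed by the submitters, and it is not analysed here.

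Of 31099 probe sets 57 controls were left out. The platform annotation gave 1 symbol to 20826, several to 436 and none to 9780, and of 223 listed genes 204 were measured. A gene is represented by its probe set with the highest mean. Group differences were fitted over all 3 groups with limma 3.58.1 in R 4.3.3 (lmFit, eBayes, Benjamini-Hochberg adjustment over all probe sets, threshold 0.05). A second limma fit regressed each probe set on group and on the deviation of Bdnf from its group mean. Both fits were tested on simulated data. The simulated associations were stronger than those seen across all arrays, so how often associations of the size seen would pass was not tested. Correlations used those deviations, with 100000 permutations within groups, or all permutations within day 7 or day 14, two-sided, in Python 3.11.15 (numpy 2.4.6; scipy 1.17.1; pandas 2.3.3; matplotlib 3.10.9 for plots). Promoter windows came from RefSeq (GRCr8).

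The gene, the lists and the tests were chosen with earlier results of these data known. Genes were named by rule: neurotrophin ligands and receptors, list members past the threshold, the 10 most and 10 least alike, and a fixed set of injury and inflammation genes. Other members of the lists are given as examples chosen after their values were seen. Slopes apart by day and the alternatives for the peptidergic mean were added after seeing the data. Alternatives covered single arrays left out, scaling, blocks, covariates, dim probe sets, moderation and array weights. Among all pairs of arrays 0 had the same values throughout, and nothing in the labels pairs rats across groups.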

Additional observations from a re-analysis of the deposited data

Results flagged for a closer look

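Values of the named genes and marker means were examined in each group for a sample whose gap to its nearest neighbour takes up more of the group's range than Dixon's 95% critical value. Of 102 groups of values 9 had such a sample, where chance gives about 1 in 20, or 5.1. None of these was Bdnf.

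The muscle marker mean stood at 9.77 in naive replicate 1 (next 6.40), 9.49 in day 7 replicate 7 (next 7.08) and 8.03 in day 14 replicate 2 (next 6.12). The general sensory neuron mean was highest among day 7 arrays in replicate 7, at 11.69 (next 11.48), and lowest among day 14 arrays in replicate 3, at 11.28 (next 11.44). Ntrk2 was lowest among day 14 arrays in replicate 3 as well, at 10.88 (next 11.15). Jun stood at 10.94 in naive replicate 2 (next 10.50) and at 11.31 in day 7 replicate 2 (next 10.89). Vgf stood at 9.24 in day 14 replicate 2 (next 10.03).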

How the results depend on the processing

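The log2 difference of Bdnf from naive stayed above 0 under each alternative run. Without any 1 array it lay between 0.69 and 0.89 at day 7 and between 0.73 and 0.93 at day 14 by 1368677_at, and between 0.20 and 0.32 and between 0.27 and 0.39 by 1368678_at. Day 14 minus day 7 lay between -0.03 and 0.12 by the first and between 0.03 and 0.09 by the second. Among AJ rats alone the values were 0.53 at day 14 by 1368677_at, and 0.11 and 0.13 by 1368678_at. The mean of both probe sets gave 0.53 and 0.58 in place of the values of 1368678_at. The replicate block left 1368677_at at 0.78 and 0.82. The numbers do not pair rats: deviations of rats of the same number in different groups correlated between -0.259 and 0.329. A filter that kept probe sets at or above the median level removed 1368678_at.

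The count of probe sets past the threshold at day 14, 43, was 9 with the replicate block, 0 with the code letters as a block, 0 with the 3' to 5' covariate, 134 with the muscle mean as a covariate, 12 without the 3 arrays high in muscle transcripts, 76 with array weights and 5 to 401 without any 1 array. At day 7 it was 2 with the 3' to 5' covariate and 0 to 2 without any 1 array. Between the times it was 1 with the code letters as a block and 0 to 3 without any 1 array. The cause of these moves was not tested.

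The count of probe sets associated with Bdnf, 0, was 53 with no group term, which lets the group differences in, and 0 to 1 without any 1 array, the 1 being without day 7 replicate 2. The Calca probe set then had r = 0.889 (limma adjusted p = 0.00236) with no group term, and 0.769 to 0.844 without any 1 array, and Tac1 had 0.702 to 0.786. The count for the difference of slopes was 0 without any 1 operated array. The agreement of the Bdnf probe sets was r = 0.536 (permutation p = 0.0529) without the 3 arrays high in muscle transcripts and 0.466 to 0.616 without any 1 array. The peptidergic mean kept r between 0.673 and 0.829 without any 1 array and a permutation p under the threshold in all 29 alternatives run. These alternatives kept the brighter Bdnf probe set as the reference. Whether the association of the mean holds for the dimmer probe set was not tested, and the r of Tac1, Calca 1370775_a_at and Trpv1 with that probe set was lower.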
